A study of Mus musculus with 15 samples.

Results

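Ribosomal protein genes encode the protein parts of the large subunit (symbols starting with Rpl) and the small subunit (Rps) of the cytoplasmic ribosome. They were described here by the accessibility of the chromatin around them. The set was chosen by name alone: 77 mouse protein-coding symbols consist of Rpl or Rps, a number and at most 1 letter out of a, x, l and y. Of these, 63 had at least 1 accessible region assigned to them and are the members, out of 16719 protein-coding genes with a region. They comprise 36 large subunit genes, 25 small subunit genes and 2 copies of ribosomal protein genes, Rpl39l and Rps27l.

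Every cell makes ribosomes, so these genes count among the classic housekeeping genes, and several of them are used as reference genes in expression studies. Their products are needed in matched amounts, and much of their control is known to act on translation, through a run of pyrimidines (C or T) at the very start of the transcript. Their promoters are short, usually lack a classic TATA box and often hold sites for ETS family factors such as GABPA, for YY1 and for SP1.

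The study measured chromatin by ATAC-seq, in which a transposase cuts and tags DNA that is not packed by nucleosomes, in 15 libraries of mouse liver cells in 5 groups of 3. The groups were untreated hepatocytes (the main liver cell), untreated biliary cells (the lining of the bile ducts), and hepatocytes, reprogrammed hepatocytes and biliary cells isolated after mice received DDC, a compound (diethoxycarbonyl-dihydrocollidine) known to injure bile ducts. The labels describe cells taken straight from liver by sorting, with no culture step. They state no strain, genotype, age, sort marker, treatment length or animal identity, so p-values measure only the spread between these libraries, which may be technical. A gene's value is the sum over its regions in nuclear RPM, reads per 1000000 reads in all regions outside the mitochondrial genome. In bulk samples, a change in fewer or more cells cannot be told apart from a change in each cell.

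The libraries differed strongly in depth and in mitochondrial reads, and both move with the groups. Untreated hepatocyte libraries held 201705 to 605309 nuclear reads, and DDC biliary libraries, the deepest, 5151190 to 10395918. Mitochondrial reads made up 76.6 ± 11.7% (SD, n = 3) in untreated hepatocytes against 9.86 ± 2.64% in DDC biliary cells. The labelled cell types showed their markers: 9 of 10 hepatocyte markers had a region, with a summed level of 4232 to 7018 nuclear RPM in untreated hepatocytes and 439 to 1273 in untreated biliary cells. All 10 biliary markers had one, at 487 to 654 against 1426 to 1564. Endothelial markers (7 of 7 with a region) summed to 114 to 154 in untreated hepatocytes and 74.5 to 104 in untreated biliary cells, stellate markers (7 of 7) to 119 to 155 and 191 to 216, macrophage markers (3 of 7) to 57.8 to 85.2 and 95.0 to 105, and lymphocyte markers (4 of 7) to 44.6 to 69.4 and 8.20 to 20.4. After DDC, stellate markers lay between 133 and 182 in hepatocytes, 255 and 291 in reprogrammed cells and 219.8 and 253 in biliary cells. Macrophage markers lay between 92.4 and 164, 97.8 and 124, and 103 and 128 in the same order, endothelial markers between 167 and 188, 125 and 177, and 111 and 137, and lymphocyte markers between 14.9 and 36.9, 11.6 and 19.1, and 14.4 and 18.7. The part of these cell types in the results was not tested.

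The start of the members' promoters shows what kind of sequence the accessible regions cover. The 8 stretches below are from RefSeq (GRCm38.p6), 5′ to 3′ on the strand of the gene, and each runs from 110 bases before the start to the start base. They were chosen among commonly studied members, common reference genes and members that the comparisons turn on. Capitals mark a match to 1 of 6 motifs, on either strand. A gene can have several starts. For Rpl19, Rps2 and Rps27l the RefSeq start used here lies 3783, 1864 and 1462 bp from the nearer end of the annotated gene body. For Rpl19 and Rps2, on the plus strand, that nearer end is the last base of the body, so the first base lies further away. For Rps27l, also on the plus strand, it is the first base. Such an offset from the nearer end is over 50 bp in 9 of 49 members with a RefSeq start.
Rps19: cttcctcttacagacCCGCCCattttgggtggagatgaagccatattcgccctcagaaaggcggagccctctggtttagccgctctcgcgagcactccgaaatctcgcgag
Rps6: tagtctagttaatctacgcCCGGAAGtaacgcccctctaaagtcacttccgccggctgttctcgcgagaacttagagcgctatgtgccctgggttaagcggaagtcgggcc
Rps18: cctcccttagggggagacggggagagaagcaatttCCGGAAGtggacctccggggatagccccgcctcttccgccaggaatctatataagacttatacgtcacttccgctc
Rps2: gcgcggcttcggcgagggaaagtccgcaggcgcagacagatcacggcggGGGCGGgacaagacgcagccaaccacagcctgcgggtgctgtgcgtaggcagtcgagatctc
Rpl19: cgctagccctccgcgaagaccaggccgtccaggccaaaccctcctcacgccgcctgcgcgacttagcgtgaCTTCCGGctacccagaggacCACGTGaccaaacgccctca
Rpl5: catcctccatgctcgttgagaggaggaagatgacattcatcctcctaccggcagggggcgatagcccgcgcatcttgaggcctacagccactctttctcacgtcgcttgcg
Rpl11: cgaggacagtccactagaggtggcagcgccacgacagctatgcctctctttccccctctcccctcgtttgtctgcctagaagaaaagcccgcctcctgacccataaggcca
Rps27l: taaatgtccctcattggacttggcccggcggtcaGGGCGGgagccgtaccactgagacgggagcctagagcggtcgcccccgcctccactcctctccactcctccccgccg

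These stretches lie at chr7:24884482-24884592 (Rps19, plus strand), chr4:86857367-86857477 (Rps6, minus), chr17:33955665-33955775 (Rps18, minus), chr17:24719953-24720063 (Rps2, plus), chr11:98026600-98026710 (Rpl19, plus), chr5:107900418-107900528 (Rpl5, plus), chr4:136053393-136053503 (Rpl11, minus) and chr9:66945976-66946086 (Rps27l, plus). Rps6 and Rps18 hold the ETS core CCGGAAG, and Rpl19 holds it on the other strand next to the E-box CACGTG. Rps2 and Rps27l hold the GC box GGGCGG, and Rps19 holds it on the other strand. The Rpl5 and Rpl11 stretches hold none of the 6 motifs, which says only that these letters are not in this window.

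Across 300 bases around the start (250 before, 50 after), the ETS core, the YY1 motif and the pyrimidine run were more frequent at these starts than over all genes with an accessible start. The motifs and the run measure were chosen after the files had been seen, matches on both strands were counted, matches to different motifs could overlap, and a match is a description, not a binding site. Of 50 symbols with a RefSeq entry and a region over the start, 18 (36%) held CCGGAAG, against 16.8% of 10986 genes with a region over the start. The YY1 motif AAGATGG was in 7 (14%), against 6.69%. A run of 8 or more pyrimidines that touches the start or lies within 5 bases of it was in 17 (34%), against 9.78%. For the other motifs the shares were near or below the background: GGGCGG 54% against 65.3%, TATAAA 8% against 7.19%, CACGTG 8% against 10.1%, and the NRF1 motif 6% against 9.71%. The median GC content of the window was 56.8% in these 50 and 61.3% in the 10986 genes.

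The 63 members held 144 regions, of which 57 covered a start and 87 did not. RefSeq gave the start for 58 of the 77 symbols, and for the other 19 either end of the gene was taken as a possible start. Regions over a start were mostly the tall and long ones, with a mean over libraries of 10.8 to 114.6 nuclear RPM (median 32.0), and the top one was at Rps19. The 87 outlying regions had a median of 2.92 nuclear RPM (0.307 to 49.2), which is less than the median of 3.36 over all 93215 nuclear regions. Of the members, 23 had a single region, and Rpl14, a large subunit gene, had 7. The members Rpl17, Rpl3, Rpl39l, Rps15a, Rps21 and Rps29 had no region over a start assigned to them.

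Another 14 symbols had no assigned region, among them Rpl7, Rpl32l, Rpl41, Rps27a, Rpl10l, Rpl15, Rpl37, Rpl3l, Rpl36, Rpl13a, Rps25 and Rpl4. For 6 of them a region did cover the start, but its midpoint lay in or nearer to a neighbour, so the assignment rule gave it away. The tallest of these was the start region of Rpl7 at chr1:16103634-16107476, with a mean of 157.9 nuclear RPM, which went to Rdh10. The start region of Rps27a went to Clhc1, that of Rpl37 to Card6, those of Rpl36 to Micos13 and Lonp1, that of Rps25 to Trappc4 and that of Rpl4 to Zwilch. Rps15a, a member through 2 other regions, lost its start region to Arl6ip1. Counted by start alone, 64 of the 77 symbols had an accessible region there.

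Levels per kb of region, the mean over 15 libraries, were compared between members. Rpl34 was highest with 41.4 nuclear RPM per kb, followed by Rpl30 (35.4) and Rpl27 (35.4), and Rpl10 (27.2) was also among the 5 highest. These 4 are large subunit genes. Rpl27 had 40.3 ± 2.38 nuclear RPM (SD, n = 3) in untreated hepatocytes, 44.1 ± 7.66 in DDC hepatocytes, 53.8 ± 14.3 in reprogrammed cells, 46.7 ± 1.19 in DDC biliary cells and 48.0 ± 1.95 in biliary cells without DDC. Rpl34 was at 67.0 ± 5.42 in reprogrammed cells and 97.6 ± 17.2 in untreated biliary cells. Over all libraries Rpl34 ran from 49.6 to 109 nuclear RPM and Rpl30 from 52.2 to 89.2, over regions of nearly the same length, so these neighbours in the order overlap. The lowest were Rps21 (5.75 per kb), Rps15a (2.27 per kb) and Rpl39l (1.82 per kb), and none of these values includes a start region. That of Rps21 rests on regions 6091 and 7997 bp from its body and that of Rpl39l on 1 region 40776 bp away.

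**Figure D1:**
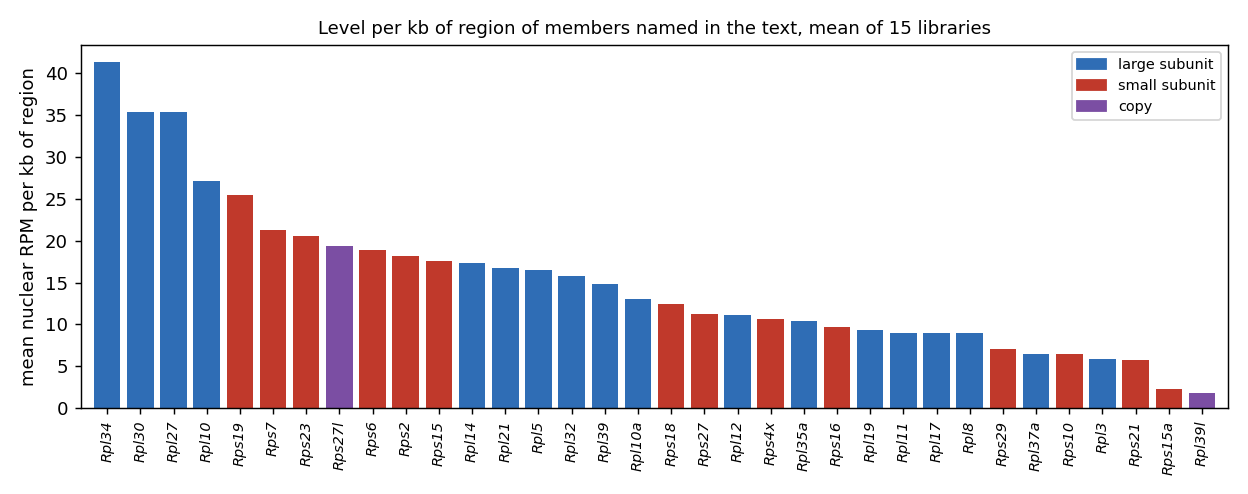
Mean accessibility over the 15 libraries per kb of assigned region, for members named in the text, in falling order (bars; blue large subunit, red small subunit, purple copies). Rpl34 leads with 41.4 nuclear RPM per kb and Rpl39l is last with 1.82.

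The 2 copies among the members rest on different kinds of region, over the start for Rps27l and far from the gene for Rpl39l. Rps27l, a ubiquitously expressed copy of Rps27, had 39.7, 23.1 and 17.0 nuclear RPM in the untreated hepatocyte libraries and 53.7, 41.4 and 38.7 in the untreated biliary ones. The region assigned to Rpl39l, a copy of Rpl39 known from testis, was at 0 to 8.52 nuclear RPM, and the highest of these values stands for 2 reads. It was listed at 0 in 7 of the 15 libraries. The copies Rpl3l, known from heart and skeletal muscle, and Rpl10l, known from testis, had no assigned region, and neither had Rpl32l. Rps4x, the X-linked small subunit gene, had a region over its start and 10.2 to 51.1 nuclear RPM.

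The symbols with an accessible start took a similar share of the reads over all start regions in each group. Untreated hepatocyte libraries had 4.06, 4.61 and 4.89 such reads per 1000 start-region reads, DDC hepatocytes 4.65, 4.77 and 4.77, reprogrammed cells 4.90, 4.96 and 4.72, DDC biliary cells 4.97, 4.84 and 4.87, and untreated biliary cells 4.89, 4.997 and 4.93. The lowest library, the first of untreated hepatocytes, is also the one with fewest reads, and the other 2 untreated hepatocyte libraries lie near the values of the other groups. The summed accessibility of the 63 members was 2119 ± 134 nuclear RPM (SD, n = 3) in untreated hepatocytes, 2371 ± 47.3 in DDC hepatocytes, 2724 ± 215 in reprogrammed cells, 2636 ± 18.4 in DDC biliary cells and 2732 ± 108 in biliary cells without DDC. The share of nuclear reads in start regions of any gene had the same order of groups, with 49.0%, 51.4%, 55.4%, 52.3% and 59.2%. This share measure was added after the files had been seen and has no test.

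**Figure D2:**
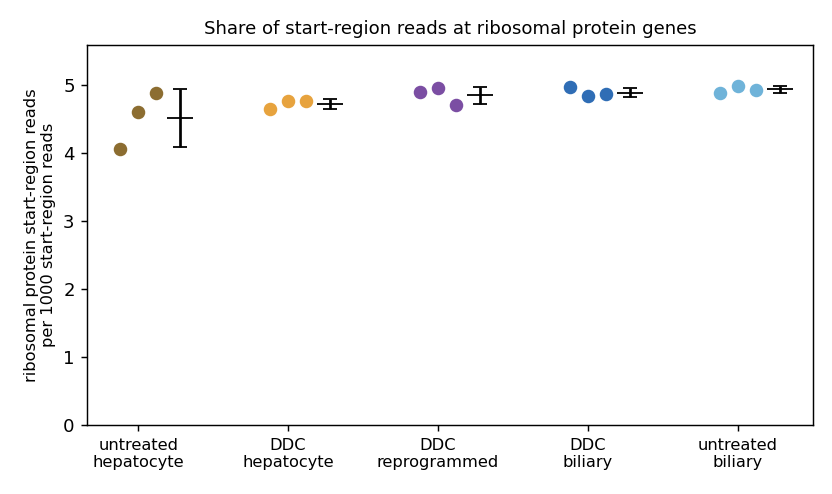
Reads in start regions of ribosomal protein genes per 1000 reads in all start regions, by group (points, 1 per library; bars, mean and SD of 3). The libraries lie between 4.06 and 4.997, and the lowest is untreated hepatocyte library 1.

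The members' summed accessibility varied over a smaller range between groups than that of the median gene. The range of the 5 group means on the log2(nuclear RPM + 1) scale had a median of 0.87 over the members and 1.09 over all 16378 genes tested. For start regions these medians were closer, with 0.90 and 0.998, and the median SD within groups was 0.42 and 0.39. Without the shallow untreated hepatocytes the median ranges were 0.42 and 0.69 for sums, and 0.42 and 0.59 for start regions. For sums without these hepatocytes the median of 33 proteasome subunit genes was 0.40, of 36 translation factors 0.36 and of 62 mitochondrial ribosomal protein genes 0.54. For 10 RNA polymerase II subunit genes it was 0.66 (1.13 over the 5 groups), close to that of all genes. Hepatocyte markers had 3.07 and biliary markers 2.54.

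The 4 members with the smallest range over the 5 groups were Rpl11, Rpl35a, Rpl14 and Rps16. This order rests on sums over all assigned regions. By the region over the start alone, Rpl35a and Rps16 had ranges of 0.21 and 0.37 on the log2 scale, but Rpl11 had 1.57 and Rpl14 1.94, wider than the median of 0.998 over all genes with a start region. Without untreated hepatocytes these 2 had 0.52 and 0.55, against 0.59. The start region of Rpl11 had 39.7, 16.5 and 0 nuclear RPM in untreated hepatocytes, and that of Rpl14 had 0, 39.6 and 25.5. In the sum of Rpl14 the region with the highest mean, 49.2 nuclear RPM, lies 27803 bp from its body. Over all libraries the sum of Rpl35a ran from 25.1 to 49.6 nuclear RPM, Rpl14 from 79.3 to 155 and Rps16 from 31.1 to 58.9. Rpl11, whose product also binds the p53 regulator Mdm2, had 59.5, 41.3 and 21.3 nuclear RPM in untreated hepatocytes and 50.4, 38.8 and 29.4 in DDC hepatocytes. Its values were 49.2, 44.6 and 35.3 in reprogrammed cells, 40.0, 45.4 and 39.2 in DDC biliary cells and, without DDC, 41.9, 38.5 and 33.5 in biliary cells. The 5 groups overlap in this sum. Its log2 changes in the 6 pairwise comparisons lay between 0.01 and 0.14, each with an SE of 0.31. Of its 5 outlying regions, 16853 to 42187 bp from the body, some were called in opposite directions between untreated biliary cells and untreated hepatocytes. The changes were 1.55 ± 0.44 and 1.73 ± 0.61 against -2.90 ± 0.56 (adjusted p over all regions tested 0.0137, 0.0376 and 0.00104). The 2 higher regions had means of only 1.92 and 2.67 nuclear RPM in untreated biliary cells and 0 in untreated hepatocytes. Those hepatocyte libraries held 201705 to 605309 nuclear reads, so a 0 there can stand for too few reads. The lower region had 2.51 against 19.8 nuclear RPM. Rpl5, which acts with Rpl11 on Mdm2, ran from 31.9 to 54.3 nuclear RPM over all libraries. In the fit of all libraries its sum was called in none of the 7 comparisons. The same held for the sum of Rps6, the target of the S6 kinases, with 41.5 to 74.3 nuclear RPM. The start regions of both genes were called in a fit without untreated hepatocytes, described below.

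**Figure D3:**
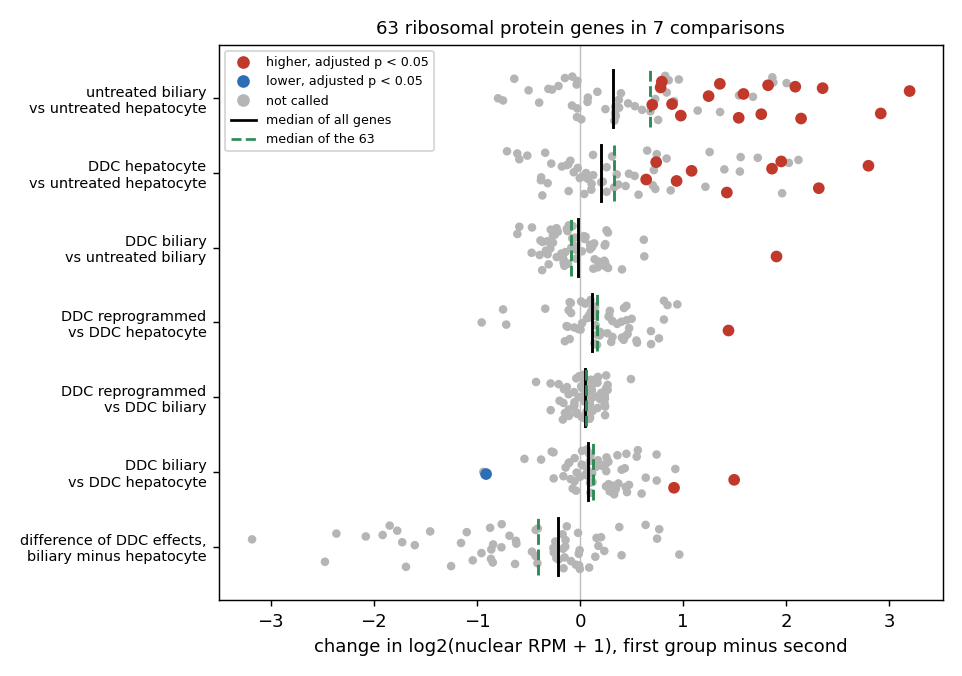
Change in log2(nuclear RPM + 1) of each of the 63 members (points) in 7 comparisons, first group minus second, with the median of all genes tested (black) and of the members (dashed green). Called members are red (higher) or blue (lower) and lie mostly in the 2 upper rows, which rest on untreated hepatocytes: 16 and 9 members, against 3, 1, 1, 0 and 0 in the others.

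Between the untreated cell types, 16 members were higher in biliary cells than in hepatocytes and 0 were lower, by limma-trend with Benjamini-Hochberg adjustment over 16378 genes and a threshold of 0.05. Over all genes 39.1% were called, 25.7% higher and 13.4% lower, so the 16 of 63 are near the background for higher calls. The members' median log2 change was 0.68, against 0.32 over all genes. Leaving out 1 biliary library gave 10 or 11 calls, with 28.8% to 32.4% of all genes called. Leaving out hepatocyte library 1, 2 or 3 gave 24, 21 or 28 calls, with 43.6%, 45.6% or 44.4% of all genes called. Of these calls 0, 1 and 3 were lower in biliary cells. The called members comprise 8 of 36 large subunit genes and 7 of 25 small subunit genes, and the copy Rps27l, whose groups overlap (0.79 ± 0.30, adjusted p = 0.0444). Rpl32, a common reference gene, was among them with 0.89 (adjusted p = 0.0464) and ran from 8.52 to 35.1 nuclear RPM over all libraries.

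Rps15, Rpl21 and Rps18 had the largest increases there, and their hepatocyte values rest on few reads. Rps15, a small subunit protein, had 0, 26.4 and 0 nuclear RPM in untreated hepatocytes (0, 16 and 0 reads) and 26.8, 30.3 and 23.2 in untreated biliary cells (71, 74 and 102 reads). Hepatocyte library 2, the deepest of the 3, lies within the biliary range, and the change was 3.20 ± 0.86 (SE, adjusted p = 0.00879). Rpl21, a large subunit protein, had 0, 10 and 2 reads against 107, 96 and 184, a change of 2.92 ± 0.70 (adjusted p = 0.0042). Rps18, a small subunit protein often used as a reference gene, had 0, 19 and 6 reads against 125, 122 and 200, a change of 2.35 ± 0.85 (adjusted p = 0.0387). The Rps18 call was lost without any 1 of the biliary libraries (adjusted p 0.0834 to 0.0933). Rpl12, among the 4 members with the largest range, had 0, 26.4 and 4.26 nuclear RPM against 19.6, 24.6 and 22.6, so that its groups overlap (change 2.14 ± 0.76, adjusted p = 0.0355).

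Rps19, Rps2 and Rpl19 had reads in each untreated hepatocyte library, though few for Rps2 and Rpl19. These 3 were also called when only the compared groups entered the fit. Rps19, which is mutated in Diamond-Blackfan anaemia, had 84.3, 90.9 and 59.6 nuclear RPM in untreated hepatocytes (17, 55 and 14 reads) and 119.8, 139.8 and 141 in untreated biliary cells. The groups do not overlap, and the change was 0.78 ± 0.17 (adjusted p = 0.0019). Rps2, a small subunit protein at the entry of the messenger RNA channel, had 19.8, 11.6 and 4.26 against 43.1, 44.7 and 51.5 nuclear RPM, a change of 2.09 ± 0.37 (adjusted p = 0.000492). The hepatocyte values of Rps2 stand for 4, 7 and 1 reads. Rpl19 had 9.92, 16.5 and 25.5 against 54.8, 68.4 and 49.7 nuclear RPM, also without overlap, and rose by 1.76 on the log2 scale (adjusted p = 0.000351). Its hepatocyte values stand for 2, 10 and 6 reads. With reads thinned to the smallest library (201705) in a fit of these 2 groups alone, 0 members were called, with 5.05% of genes called, and edgeR with TMM called 8 members, with 29.6% of genes called.

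By start regions alone, 19 of 64 symbols were higher and 0 lower, where 39.0% of 13490 genes were called, 32.8% higher and 6.23% lower. Rpl37, a large subunit gene that is not a member because its start region went to Card6, had 39.7, 33.04 and 34.1 nuclear RPM there in untreated hepatocytes and 111, 134 and 154 in untreated biliary cells. Its change was 1.87 ± 0.17 (adjusted p = 4.77e-06), with groups that do not overlap. Untreated hepatocytes had a mitochondrial share of 63.1 to 84.2% and a median of 6 to 16 reads per member, against 99 to 173 in untreated biliary cells, and the part of both in these calls was not tested.

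DDC hepatocytes compared with untreated hepatocytes address the effect of DDC within the main liver cell. Higher after DDC were 9 members and lower 0, where 13.5% of all genes were called, 9.63% higher and 3.9% lower. The members' median change was 0.33, against 0.21 over all genes. The largest called increases were those of Rps15 (2.80 ± 0.86), Rpl21 (2.32 ± 0.70) and Rps2 (1.95 ± 0.37), with adjusted p of 0.0436, 0.0401 and 0.00398. The calls of Rps15 and Rpl21 were lost without any 1 of the DDC hepatocyte libraries (adjusted p 0.0793 to 0.1196 and 0.0557 to 0.1416), and that of Rps15 also without untreated hepatocyte library 1 or 3 (0.1018 and 0.1037). The count was 5, 4 or 5 without DDC hepatocyte library 1, 2 or 3, with 4.98%, 6.72% or 13.9% of all genes called. It was 11, 13 or 15 without untreated hepatocyte library 1, 2 or 3, with 18.5%, 27.8% or 20% of all genes called. Of these calls 1, 1 and 2 were lower after DDC.

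Both comparisons share the 3 untreated hepatocyte libraries, so low values there enter both. DDC hepatocytes had a mitochondrial share of 29.1 to 42.4% and a median of 39 to 84 reads per member, and the part of this in the calls was not tested. Rps2 had 38.4, 38.3 and 50.4 nuclear RPM in DDC hepatocytes, above all 3 untreated hepatocyte values. Rps10, whose product lies in the small subunit's head, had 4.96, 9.91 and 17.0 nuclear RPM in untreated hepatocytes (1, 6 and 4 reads) and 52.1, 32.1 and 31.1 after DDC, without overlap. Its change was 1.86 ± 0.35 (adjusted p = 0.00372). Rpl3 was called here too (0.94 ± 0.27, adjusted p = 0.033), but not without untreated hepatocyte library 2 or 3 or DDC hepatocyte library 1 or 2 (adjusted p 0.0515 to 0.1375). In a fit of these 2 groups alone, 0 members and 1 gene of 16039 were called, with 6 members at an unadjusted p under 0.05, and edgeR with TMM called 3 members, with 4.91% of genes called. Among start regions 8 of 64 symbols were higher and 1 was lower, with 12.0% of genes called, 9.69% higher and 2.32% lower: the lower one was Rps27a, which encodes a ubiquitin fusion, at 59.5, 99.1 and 93.7 nuclear RPM before and 40.6, 57.5 and 58.8 after DDC.

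In biliary cells 1 member was called after DDC, Rpl3, a large subunit protein close to the peptidyl transferase centre. Of all genes 3.25% were called. Rpl3 had 37.0, 27.1 and 23.9 nuclear RPM in untreated biliary cells and 115, 102 and 114 after DDC, without overlap. The change was 1.90 ± 0.27 (adjusted p = 0.00255). The median over the members was -0.09 and over all genes -0.02.

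Rpl3 was also the 1 member called between reprogrammed cells and DDC hepatocytes, where 14.4% of genes were called. It had 48.2, 42.6 and 27.7 nuclear RPM in DDC hepatocytes and 119.8, 102 and 97.3 in reprogrammed cells, a change of 1.44 ± 0.27 (adjusted p = 0.00261). The values of reprogrammed and DDC biliary cells overlap, and those of untreated hepatocytes and untreated biliary cells lie at 14.9 to 37.0 nuclear RPM.

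The change of Rpl3 lay in a region that covers neither end of its gene. Rpl3 had 6 assigned regions and none over either end of its body at chr15:80077781-80083406. The region that changed lies at chr15:80058381-80063518, with its midpoint 16832 bp from that body. The next gene, Syngr1, is 27816 bp from the edge of the region, so these 2 distances are not on the same measure. It had 17.4, 15.6 and 12.8 nuclear RPM in untreated biliary cells, 82.3, 76.5 and 78.9 in DDC biliary cells, 85.6, 78.8 and 67.1 in reprogrammed cells and 25.2, 23.0 and 7.55 in DDC hepatocytes. The increases in DDC biliary over untreated biliary cells, in reprogrammed cells over DDC hepatocytes and in DDC biliary cells over DDC hepatocytes were 2.31 ± 0.50, 2.15 ± 0.50 and 2.20 ± 0.50 (adjusted p over 79075 regions 0.0189, 0.0114 and 0.00442). Which gene this region acts on was not measured.

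**Figure D4:**
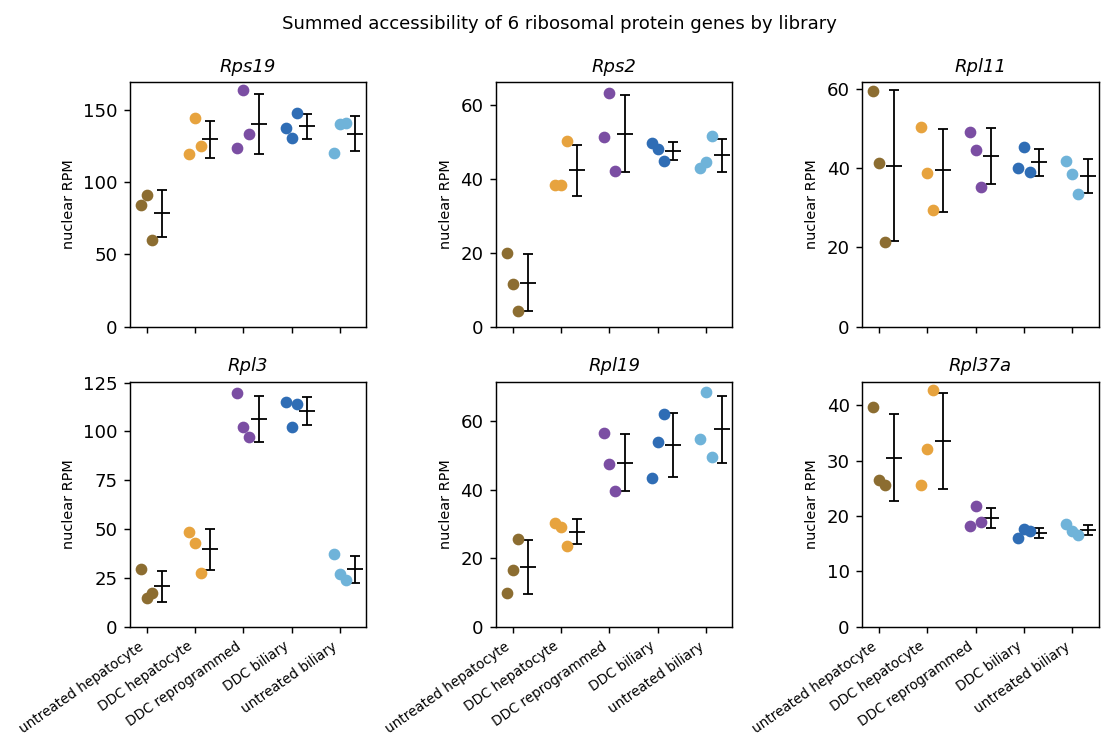
Summed accessibility in nuclear RPM of Rps19, Rps2, Rpl11, Rpl3, Rpl19 and Rpl37a in each library (points) by group, with mean and SD of 3 (bars). Rpl3 is at 97.3 to 119.8 in reprogrammed and DDC biliary cells and at 14.9 to 48.2 elsewhere, whereas the sums of Rpl11 overlap in all 5 groups.

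DDC biliary cells and DDC hepatocytes, compared directly, differed at 3 members: Rpl3 and Rpl19 were higher in biliary cells and Rpl37a was lower. Of all genes 24.5% were called, 12.8% higher and 11.7% lower. Rpl3 changed by 1.49 ± 0.27 (adjusted p = 0.000827). Rpl19, a large subunit gene often used as a reference gene, had 30.3, 29.2 and 23.5 nuclear RPM in DDC hepatocytes and 43.5, 54.0 and 62.1 in DDC biliary cells, without overlap. Its change was 0.91 ± 0.30 (adjusted p = 0.0341). Rpl37a, a zinc-binding large subunit protein, had 25.6, 32.1 and 42.8 against 16.0, 17.7 and 17.3, and fell by 0.91 ± 0.29 (adjusted p = 0.0292). Of the 6 libraries compared, leaving out any 1 but DDC biliary library 1 ended the call of Rpl19 (adjusted p 0.0552 to 0.1394), and any 1 but DDC hepatocyte library 1 that of Rpl37a (0.0686 to 0.1107).

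For both genes the region over the RefSeq start was not called. The Rpl19 region over the start, chr11:98026234-98027549, changed by 0.20 ± 0.31 (adjusted p = 0.678), with 19.2, 17.7 and 16.8 nuclear RPM in DDC hepatocytes and 14.4, 22.3 and 27.6 in DDC biliary cells. Another Rpl19 region, chr11:98020851-98023506, lies over the left end of the annotated body (chr11:98022003-98030493), which is on the plus strand, so that it covers the first base of that body, and is shared with Cacnb1. It changed by 1.95 ± 0.71 (adjusted p = 0.0495), from 8.54, 7.66 and 5.04 to 27.6, 30.7 and 30.7. The start region of Rpl37a changed by -0.45 ± 0.38 (adjusted p = 0.410). A region 12270 bp from its body, chr1:72725830-72726337, had 2.13, 7.66 and 10.9 nuclear RPM in DDC hepatocytes and at most 0.577 in DDC biliary cells.

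Over all member regions, in this comparison 0 of 57 regions over a start were called, and 13 of 80 outlying regions of mean 1 or more, 10 higher and 3 lower, where 28.6% of all 79075 regions were called, 16.4% higher and 12.1% lower. Of the 87 outlying regions, 2 cover an end of the annotated body, 1 each at Rpl19 and Rps15a. The one at Rps15a lies over the last base of that minus-strand gene. The one at Rpl19 covers the first base of the body and is among the 13, so there the split depends on which start is used. In reprogrammed against DDC biliary cells 0 of 57 and 0 of 80 were called, with 0% of regions called. In DDC biliary against untreated biliary cells the counts were 0 of 57 and 2 of 80 (background 3.47%), and in reprogrammed cells against DDC hepatocytes 0 of 57 and 4 of 80 (background 14.2%). Among the outlying regions was 1 within Rps7, a small subunit gene, at chr12:28632043-28632587, with 9.39, 8.14 and 4.20 nuclear RPM in DDC hepatocytes, 0.769, 0.971 and 0.293 in DDC biliary cells and 0.658, 0 and 0.210 in reprogrammed cells. The test of single regions was added after the files had been seen.

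**Figure D5:**
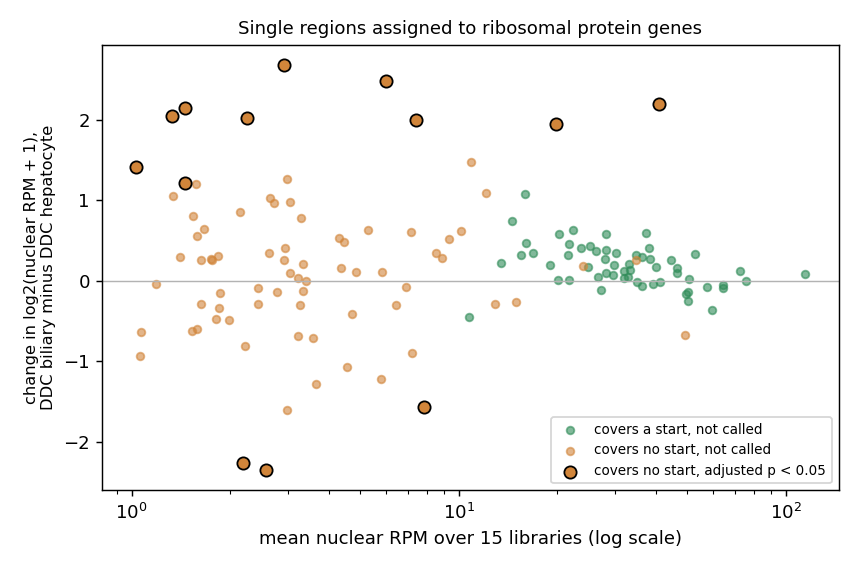
Change in log2(nuclear RPM + 1) from DDC hepatocytes to DDC biliary cells (vertical) against mean nuclear RPM (horizontal, log scale) for the regions assigned to the members, green where a region covers a start and orange where it does not. The 13 called regions, outlined in black, are all orange, and 1 of them, at Rpl19, lies over an end of the annotated gene body that is not the RefSeq start used.

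That 0 start regions passed does not show that promoters stayed the same. Summed per gene, start regions were called for 0 of 64 symbols in each of the comparisons among reprogrammed, DDC and untreated biliary cells and DDC hepatocytes, with 6, 2, 0 and 1 symbols at an unadjusted p under 0.05. All genes were called at 0.437% in DDC against untreated biliary cells, 5.95% in reprogrammed cells against DDC hepatocytes, 0.0222% in reprogrammed against DDC biliary cells and 11.5% in DDC biliary cells against DDC hepatocytes. The shallow untreated hepatocytes share the estimate of spread in that fit. A fit without them, added after the files had been seen, called 5, 5, 0 and 5 symbols in the same order, with 11.3%, 26.6%, 1.1% and 29.8% of genes called (7.92% lower in the first of these and 21.1% higher in the next), so that the symbols' share is below the background in each.

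Summed over all their regions, 3, 9, 0 and 7 members were called without untreated hepatocytes, where 16.8%, 35%, 1.73% and 43.4% of genes were called. The start-region calls were of modest size. In DDC against untreated biliary cells Rpl37, Rpl7, Rps23, Rps27a and Rps6 were lower, by 0.66 ± 0.15, 0.52 ± 0.15, 0.63 ± 0.16, 0.59 ± 0.16 and 0.54 ± 0.17 on the log2 scale. At the start of Rps27a the values were 84.6, 84.0 and 83.6 nuclear RPM in untreated and 56.0, 56.5 and 54.3 in DDC biliary cells, without overlap. In reprogrammed cells against DDC hepatocytes the 5 symbols called were higher, among them Rpl37 by 0.42, Rpl5 by 0.63, Rpl10a by 0.69 and Rpl8 by 1.02, and in DDC biliary cells against DDC hepatocytes Rpl10a, Rpl32, Rpl5 and Rpl8 were higher and Rpl7 was lower. Rpl10a, a protein of a mobile stalk of the large subunit, had 35.4, 34.96 and 23.5 nuclear RPM in DDC hepatocytes, 57.7, 53.0 and 41.4 in reprogrammed cells and 47.6, 46.6 and 47.0 in DDC biliary cells. These 2 comparisons share the DDC hepatocyte libraries.

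Between reprogrammed and DDC biliary cells no member was called, which does not show that they are alike. Called were 0 members by limma-trend, where 0.0244% of all genes were called, and 0 had an unadjusted p under 0.05. EdgeR with TMM called 0 members, where 2.81% of all genes were called. The members' median change was 0.06 and that of all genes 0.05.

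Whether DDC changed members differently in biliary cells and hepatocytes was tested as the difference of the 2 effects. Called were 0 members, with 10 at an unadjusted p under 0.05, where 2.78% of genes were called. EdgeR with TMM called 1, where 3.16% of genes were called. Without untreated hepatocyte library 1, 2 or 3 the count was 2, 10 or 5, with 7.22%, 13.6% or 7.93% of all genes called. The members' median difference was -0.41, against -0.21 over all genes. Among start regions (2.81% of genes called, 2.6% lower) Rpl37 was called as lower, with a difference of -1.67 ± 0.23 (adjusted p = 0.00284). It went from 39.7, 33.04 and 34.1 to 79.8, 62.7 and 76.4 nuclear RPM in hepatocytes, and from 111, 134 and 154 to 86.0, 78.4 and 85.8 in biliary cells.

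Other genes of translation and housekeeping were counted in the same fit. Of 9 tested ribosomal protein genes with other names, Rplp0, Rplp1 and Rplp2, which form the acidic stalk of the large subunit, were higher in untreated biliary cells than in untreated hepatocytes and 0 were lower, by 0.90 ± 0.29, 1.002 ± 0.38 and 1.05 ± 0.26. Over all genes 25.7% were higher and 13.4% lower there. Translation factors had 10 of 36 higher and 1 lower, ribosome biogenesis genes 9 of 29 higher and 2 lower, proteasome subunits 5 of 33 and 3, mitochondrial ribosomal proteins 12 of 62 and 7, and RNA polymerase II subunits 3 of 10 and 0. Of 17 known regulators of ribosomal protein genes or of their translation, 3 were higher and 2 lower. Their medians were 0.47, 0.37, 0.51, 0.31, 0.35, 0.42 and 0.10, against 0.32 over all genes.

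Between DDC biliary cells and DDC hepatocytes the regulators had 1 of 17 higher and 3 lower, where 12.8% of all genes were higher and 11.7% lower. Nrf1, a transcription factor of many housekeeping promoters, was higher by 1.09 ± 0.21 (adjusted p = 0.00116), and Eif4ebp1, the translation repressor that Mtor inactivates, fell by 1.27 ± 0.21 (adjusted p = 0.000388). Among biogenesis genes Bop1, needed for maturation of the large subunit, was higher by 3.03 ± 0.35 (adjusted p = 3.13e-05). In that comparison translation factors had 1 higher and 1 lower of 36, biogenesis genes 1 and 3 of 29, and ribosomal protein genes with other names 0 and 0 of 9. All these changes, that of Bop1 included, are of sums over the regions assigned to a gene. By start regions alone 0 of 34 biogenesis genes were called and 1 of 16 regulators was higher and 1 lower, with 11.5% of all genes called.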

How the data were processed

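ATAC-seq values of 93217 regions in 15 libraries were used. The submitters' processing notes name Bowtie2, SAMtools, MACS2, bedtools and the build mm10, without settings or versions. The deposited values, which the authors call TPM, are RPM, reads per 1000000 reads in regions. Of the nonzero values in the lower range, 100% were whole multiples of 1 read (tolerance 0.02), and higher values were not checked. For DDC reprogrammed library 1 the step lies close to a power of 10, so this pattern is weaker evidence there. The tests, planned for TPM, were kept. Values were rescaled without 2 mitochondrial regions. Each region was assigned by its midpoint to the protein-coding body around it, else to the nearest body within 50000 bp (RefSeq, GRCm38.p6), and 862 midpoints lay in several bodies. Distances of a region to a member's body run from the midpoint. Log2(nuclear RPM + 1) of 16378 genes of mean 1 or more was tested over all libraries with limma 3.58.1 (trend; R 4.3.3; Benjamini-Hochberg adjustment), and the recovered reads with edgeR 4.0.16. Tables and figures were made with pandas 2.3.3, numpy 2.4.6 and matplotlib 3.10.9 in Python 3.11.15. The scripts were tested on simulated data. Adding 1 understates the change of low genes. No 2 libraries of a group agreed within sampling noise (chi-square per degree of freedom of 2.18 to 7.47). Members and lists were chosen with earlier results of these data known. Named members are those with the largest called changes in a comparison, the highest and lowest levels per kb, the smallest and largest ranges, the copies and a set of commonly used genes. Rps10, Rpl37, Rps7, Rpl10a and other genes named for a single region or start were chosen after their values were seen. Some members are not reported here by name.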

Additional observations from a re-analysis of the deposited data

How the results depend on the processing

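The calls against untreated hepatocytes depend on the processing more than those of Rpl3. In this order, the members called in untreated biliary cells against untreated hepatocytes, DDC against untreated hepatocytes, DDC against untreated biliary cells, reprogrammed cells against DDC hepatocytes, DDC biliary cells against DDC hepatocytes and the difference of the DDC effects were 16, 9, 1, 1, 3 and 0. Reprogrammed against DDC biliary cells gave 0 under every alternative run.
With values as deposited, mitochondrial reads included, the counts were 62, 60, 1, 9, 6 and 53, where 87.2%, 85.1%, 2.93%, 24.7%, 29.8% and 64.3% of all genes were called, and the medians 2.30, 1.76, 0.052, 0.61, 0.58 and -1.56. EdgeR with TMM called 8, 3, 3, 7, 6 and 1 (all genes 29.6%, 4.91%, 15.6%, 30.2%, 39.1% and 3.16%), with medians of 0.35, 0.15 and -0.061 in the first 3 and -0.19 in the difference. EdgeR with DESeq2-like size factors called 8, 4, 3, 8, 8 and 1 (medians of 0.35, 0.11, -0.052 and, in the difference, -0.15). All genes were called at 29.6%, 5.3%, 15.9%, 30.2%, 39.4% and 3.21%. With only the compared groups, 3, 0, 8, 4 and 7 were called in the first 5, where 17.1%, 0.00623%, 27.7%, 27.2% and 39.9% of all genes were called. After thinning the counts were 0, 0, 6, 4 and 5, where 5.05%, 0%, 24.7%, 22.1% and 34% of all genes were called. The medians after thinning were 0.50 and 0.24 in the first 2 and -0.27 in the difference. A pseudocount of 5 gave 1 call in the difference (all genes 3.13%) and medians of 0.53 in the first comparison and -0.23 in the difference. Limma after TMM factors gave medians of 0.60 and -0.062 in the first comparison and in DDC against untreated biliary cells, and assignment by any overlap 0.60 and -0.11.
Start regions only gave 0, 0, 0 and 1 calls in the last 4 (all genes 0.437%, 5.95%, 11.5% and 2.81%). Their medians were 0.51, -0.16 and -0.50 in DDC against untreated hepatocytes, DDC against untreated biliary cells and the difference. Without untreated hepatocyte libraries 3, 9 and 7 members were called in the next 3 of this order after the hepatocyte comparisons (all genes 16.8%, 35% and 43.4%). By start regions only the counts were 5, 5 and 5 (all genes 11.3%, 26.6% and 29.8%, median -0.16 in DDC against untreated biliary cells). Scaled to start-region reads, start regions gave 0, 0, 0 and 1 in the last 4 (all genes 0.274%, 5.01%, 11.4% and 1.36%). Their medians were 0.49, 0.44 and 0.015 in the first 3 and -0.26 in the difference. Outlying regions only gave 3, 3, 6 and 1 calls in DDC against untreated hepatocytes, both comparisons with DDC hepatocytes and the difference. All genes were called there at 12.2%, 19.8%, 32.7% and 2.62%. The medians of outlying regions were 0.15 in the first comparison, 0.13 in DDC against untreated biliary cells, 0.033 in the difference and -0.11 in reprogrammed against DDC biliary cells. There Rps10 in the first comparison reversed to -0.067. These 2 alternatives, and start regions without untreated hepatocytes, were chosen after seeing the data; the causes were not tested.
Leaving out 1 library gave 10 to 28, 4 to 15, 1 to 1, 1 to 1, 1 to 2 and 0 to 10 calls. All genes were called at 28.8% to 45.6%, 4.98% to 27.8%, 0.263% to 2.77%, 6.5% to 11.6%, 16.3% to 20.9% and 0.526% to 13.6%. The members' medians were 0.38 to 0.66, 0.17 to 0.41, -0.10 to -0.034, 0.11 to 0.27, 0.14 to 0.18 and -0.43 to -0.17, and -0.02 to 0.13 in reprogrammed against DDC biliary cells. For single members called, the other alternatives left 263 values past the threshold and 111 with the same direction but not past it, and leaving out 1 library 127 and 53.
The labels share replicate numbers but state no animal identity. Deviations of same-numbered libraries correlated at -0.137 to 0.198 (median 0.033). Those of differently numbered libraries correlated at -0.250 to 0.189 (median -0.021). Whether equal numbers mark the same animal was not tested. With the replicate block 16, 8, 1, 1, 4 and 0 members were called, where 39.8%, 14.2%, 3.36%, 14.3%, 24.8% and 2.78% of all genes were called. Untreated hepatocytes had a median of 6 to 16 reads per member, which limits the precision of their values.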
